A study of Mus musculus with 2 samples.

Results

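The annexin, S100 and galectin genes examined here are 10 genes raised in memory-type T cells: Anxa1, Anxa2, Anxa5 and Anxa6, S100a4, S100a6, S100a10 and S100a11, and Lgals1 and Lgals3. They were taken by gene name among all gene spots of both arrays, which gave 12 probes of the 41174 on the array, with a second probe for Anxa2 and for Anxa6. All 10 genes passed the filter on dim probes and were tested, among 9281 genes in all. RNA was compared between CD8+ T cells of Bcl11bF/F/dLck-iCre mice (knockout, KO) and of wild-type (WT) mice, both on the C57BL/6 background. In the knockout the floxed alleles of Bcl11b, a zinc-finger transcription factor of T cells, are deleted by an iCre recombinase under the distal Lck promoter, which acts late in thymic development. Cells with low CD44 and CD25 had been sorted to more than 90% purity per the labels, which give neither the age of the mice nor how many were used per sample. Each of 2 arrays held a KO sample in Cy5 and a WT sample in Cy3, described as biological replicates, so that dye and genotype cannot be told apart for any gene, and n = 2 ratios throughout.

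Annexins are calcium-dependent proteins that bind acidic phospholipids at membranes. S100 proteins are small EF-hand proteins that work mostly as dimers, and several of them bind annexins: S100a10 joins Anxa2 in a membrane complex, and S100a11 binds Anxa1. Galectins are lectins that bind beta-galactosides on cell surfaces. In T cells most of these genes are low in the naive state and higher after activation and in memory, and macrophages and natural killer (NK) cells also express many of them.

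Before the values, a few facts of the arrays bear on them. Gene spots well above background numbered 17276 and 10955 in KO and 10739 and 13446 in WT on arrays 1 and 2, of 43379. Array 1 was the more variable, with 2504 genes past 2-fold against 263 on array 2. The Y-linked Ddx3y and Eif2s3y were detected above background in the KO sample of array 1 and the WT sample of array 2 alone, so the samples of each pair were not matched in this respect, and in opposite directions. Bcl11b had log2 ratios of -1.45 and -1.73 by its brighter probe without passing the test (limma adjusted p = 0.0747). Its other probe, well above background in all 4 samples, gave -0.35 and -2.32, so the probes differed on array 1. All 5 T cell markers measured and both CD8 genes were well above background in each of the 4 samples. In bulk RNA of this kind, fewer cells of a type and less RNA per cell cannot be told apart.

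On the array design's mm8 coordinates, the S100 probes lay on chromosome 3, plus strand. S100a4 was probed from 90691847 to 90691907, S100a6 from 90700165 to 90700224, S100a11 from 93611499 to 93611558 and S100a10 from 93649919 to 93649978. In the RefSeq annotation of GRCm38.p6, S100a4 and S100a6 stand 6.85 kb apart and S100a11 and S100a10 28.83 kb apart, with 2906.08 kb between the pairs. The annexins and galectins lie on other chromosomes or far along chromosome 3. The Anxa2 probe in the fit was annotated on chromosome 9 from 69288867 to 69288926, that of Anxa1 on chromosome 19 from 20440781 to 20442294, and that of Anxa5 on chromosome 3 from 36640692 to 36640751. That of Anxa6 lay on chromosome 11 from 54834628 to 54834687, that of Lgals1 on chromosome 15 from 78757391 to 78757450 and that of Lgals3 on chromosome 14 from 46306600 to 46307416. The coordinates of the Anxa1 and Lgals3 probes span 1514 and 817 bases, longer than the 60 bases of most others. All of these probes except that of Anxa6 are annotated to RefSeq mRNAs, and the Anxa6 probe to a full-length cDNA clone. Their place against exons was not checked.

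Promoter sequence is shown for 4 of the 10 genes: Anxa2 and S100a4, the genes past 2-fold on both arrays, and Anxa1 and S100a11, a binding pair. Each line gives the 250 bases before the annotated start, from RefSeq on GRCm38.p6, read in the gene's direction. They are chr9:69453433-69453682 and chr3:90603520-90603769 on the plus strand for Anxa2 and S100a4, chr19:20390672-20390921 on the minus strand for Anxa1, and chr3:93520246-93520495 on the plus strand for S100a11. Capitals mark matches on either strand to TGANTCA, the AP-1 motif, to GGGCGG, the GC box, or to TGACCA, a motif known for the related human factor BCL11A.
Anxa2: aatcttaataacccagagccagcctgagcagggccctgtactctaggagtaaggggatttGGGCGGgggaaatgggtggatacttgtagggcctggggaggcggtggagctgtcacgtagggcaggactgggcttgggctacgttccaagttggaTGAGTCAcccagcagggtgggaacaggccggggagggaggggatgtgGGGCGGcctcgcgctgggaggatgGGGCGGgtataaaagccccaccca
S100a4: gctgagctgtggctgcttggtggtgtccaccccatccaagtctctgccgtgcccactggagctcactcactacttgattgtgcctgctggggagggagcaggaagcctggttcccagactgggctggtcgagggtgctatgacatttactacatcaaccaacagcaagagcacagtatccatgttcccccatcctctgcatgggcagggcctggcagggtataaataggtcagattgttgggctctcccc
Anxa1: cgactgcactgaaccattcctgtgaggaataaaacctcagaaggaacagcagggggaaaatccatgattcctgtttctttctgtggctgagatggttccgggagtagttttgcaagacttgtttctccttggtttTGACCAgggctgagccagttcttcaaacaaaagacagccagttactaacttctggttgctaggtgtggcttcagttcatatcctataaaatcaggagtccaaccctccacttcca
S100a11: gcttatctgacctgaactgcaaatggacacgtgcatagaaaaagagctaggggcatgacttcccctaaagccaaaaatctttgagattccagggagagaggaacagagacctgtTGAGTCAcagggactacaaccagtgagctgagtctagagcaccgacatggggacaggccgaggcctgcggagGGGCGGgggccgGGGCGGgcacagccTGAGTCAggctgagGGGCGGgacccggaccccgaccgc
Of 32851 promoter windows of this length, 6.75% held the AP-1 motif, 32.7% the GC box and 11.4% TGACCA. No match overlapped another in the sequences shown. Of the 7 genes with a promoter in the table, 2 held an AP-1 match (Anxa2 and S100a11), 3 held a GC box (these genes and Lgals3) and 1 held TGACCA (Anxa1). S100a4, S100a6 and Anxa5 held none of the 3 motifs. A match describes the letters of the window and is no evidence of binding.

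Of the 10 genes, 9 had a higher signal in KO than in WT on both arrays, where 30.9% of all genes tested did, and Anxa6 was slightly lower on both, as were 30.8% of all genes. The median log2 ratio of the 10 genes was 1.32 on array 1 and 0.70 on array 2, against 0.05 and -0.01 for all genes. Anxa1, Anxa2 and Lgals3 passed the filter through the KO channel alone, since WT was dim on array 1 or on both arrays, so a higher KO signal was favoured for them and these counts are a description. With both channels required on both arrays, 7 of the 10 genes were tested and none passed (limma); 6 were above 0 on both arrays, as were 27.9% of all genes. With the filter as used, Anxa2 was the only one to pass the test across all genes (limma, Benjamini-Hochberg threshold 0.05), which called 1.24% of the genes higher in KO and 0.248% lower (1.49% in all). A mean log2 ratio over 1 was found for 5 of the 10 genes (7.67% of all genes). On array 1, 7 of them were over 2-fold higher in KO (21.1% of all genes) and on array 2, 2 were (1.96%). Those 2, Anxa2 and S100a4, exceeded 2-fold on both arrays, as did 1.12% of all genes. Both KO signals lay above both WT signals for 6 of the 10 genes, against 21.2% of all genes: Anxa1, Anxa2, Anxa5, S100a10, S100a11 and Lgals3. With median centring of the arrays instead of loess, the median of all genes moved to 0.68 and 64.9% of genes were above 0 on both arrays. All 10 of the genes were then above 0 on both, and their median exceeded that of all genes by 0.98, against 0.95 with loess.

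**Figure D1:**
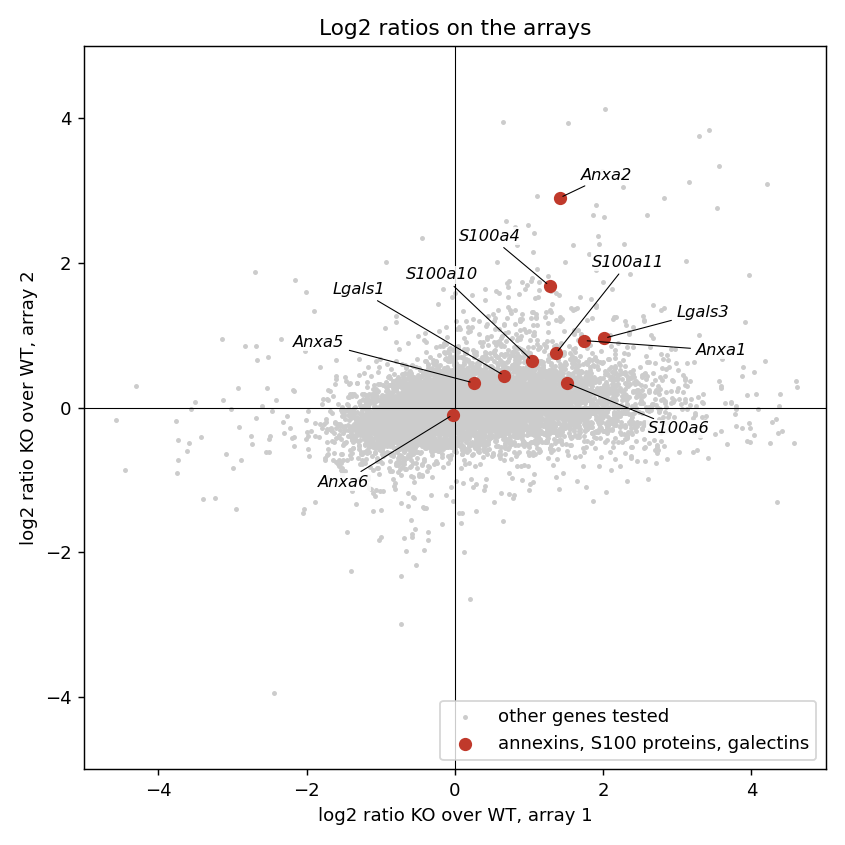
Log2 ratios of KO over WT on array 1 (horizontal) and array 2 (vertical) for the 9281 genes tested (grey) and the 10 annexin, S100 and galectin genes (red); 4 genes fall outside the axes. Apart from Anxa6, which is just below 0 on both axes, the red points lie above 0 on both arrays, and Anxa2 is the highest of them on array 2, at 2.90.

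Anxa2, which links membranes to the actin cytoskeleton, had a higher signal in KO than in WT on both arrays. Its normalised intensity was 2597 and 7311 in the KO samples of arrays 1 and 2, against 976 and 980 in the WT samples. The WT samples were nearly alike and both KO samples lay above them, the one on array 2 by the wider margin. The log2 ratios were 1.41 and 2.90, with a mean of 2.16 ± 1.05 (SD, n = 2; limma adjusted p = 0.0031), or 4.46-fold. The WT channel was well above background on array 2 only, so the size on array 1 rests on a dim signal. Anxa2 therefore passed the filter through the KO channel alone, which favours a higher KO signal, so the call is a description. The second probe, at chromosome 9 from 69282203 to 69282977, gave log2 ratios of 0.75 and 2.67. In WT cells that probe was on neither array well above background, and by it Anxa2 was at least 2.57-fold higher in KO. It also lists 1 predicted transcript, and whether that belongs to Anxa2 was not checked. The call held under 5 of the 12 alternative settings that could be fitted for it, and the adjusted p lay between 0.000263 and 0.479.

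Anxa1, an anti-inflammatory annexin that signals through formyl peptide receptors when secreted, was measured above background in KO cells alone. The intensities were 921 and 1038 in KO, against 276 and 546 in WT. The WT scans, at 838 and 1076 before correction, were below the medians of the negative control spots in that channel (1087 and 1120). The groups did not overlap, and with only a bound in WT the gene was at least 1.27-fold higher in KO, without passing (adjusted p = 0.209). The bound compares the mean KO signal with, on each array, the higher of the gene's own WT signal and the dimmest WT signal that was well above background.

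Anxa5, which binds exposed phosphatidylserine, and Anxa6, the largest annexin with a doubled core, differed little between genotypes. Anxa5 stood at 3766 and 3833 in KO, against 3160 and 3025 in WT, which gave a mean log2 ratio of 0.30 ± 0.06 (limma adjusted p = 0.933; SD, n = 2). The 95% interval of the fit, unadjusted, went from -0.68 to 1.27, an interval that includes a rise past 2-fold. Anxa6 stood at 2606 and 1425 in KO, against 2649 and 1524 in WT, with log2 ratios of -0.02 and -0.10 and an interval from -1.03 to 0.91. Both genotypes were lower on array 2, and the second Anxa6 probe gave -0.35 and 0.44, opposite signs on the arrays.

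**Figure D2:**
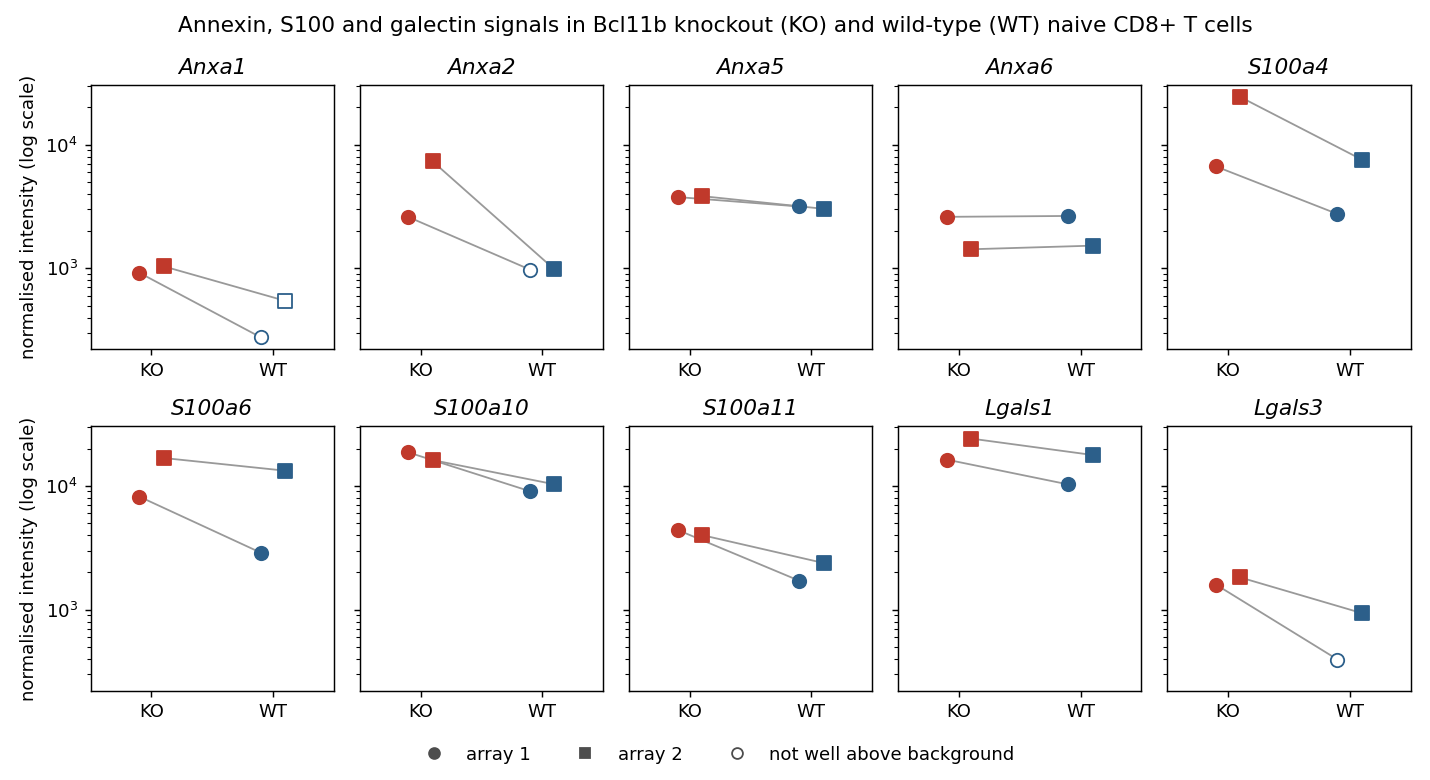
Normalised intensity (log scale) of each gene in KO (red) and WT (blue) samples; circles are array 1, squares array 2, lines join the samples of an array, and open symbols were not well above background. The KO symbol sits above the WT symbol of the same array for every gene but Anxa6, while for S100a4, S100a6 and Lgals1 the WT sample of array 2 lies above the KO sample of array 1.

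The 4 S100 genes were all higher in KO on both arrays, by log2 ratios of 1.04 to 1.51 on array 1 and 0.34 to 1.68 on array 2, and none passed. S100a4, which binds non-muscle myosin and is linked to cell motility, was past 2-fold on both arrays. It stood at 6661 and 24262 in KO, against 2747 and 7560 in WT. Within each array KO exceeded WT, but both genotypes were brighter on array 2, so the KO sample of array 1 was below the WT sample of array 2. The log2 ratio was 1.48 ± 0.29 (SD, n = 2), or 2.79-fold, with a 95% interval from 0.51 to 2.45 before adjustment (adjusted p = 0.121).

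S100a6 (calcyclin), the neighbour of S100a4, showed the widest gap between arrays among the S100 genes. Its intensity was 8188 and 16789 in KO, against 2879 and 13254 in WT. The WT sample of array 2 was 4.60-fold brighter than that of array 1, and the log2 ratios were 1.51 and 0.34 (adjusted p = 0.562).

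S100a10, the partner of Anxa2, stood at 18632 and 16136 in KO, against 9040 and 10290 in WT. The genotypes did not overlap, and the samples of each genotype were close to one another. Its log2 ratio was 0.85 ± 0.28 (SD, n = 2; adjusted p = 0.637), well below that of Anxa2, though the difference between these genes was not tested. S100a11, the partner of Anxa1, stood at 4403 and 3999 in KO, against 1711 and 2379 in WT, again without overlap. Its log2 ratio was 1.06 ± 0.43 (SD, n = 2; adjusted p = 0.426). The S100a11 probe also lists 2 predicted transcripts. Whether they belong to S100a11 was not checked, and any signal of other genes cannot be separated.

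Lgals1, which encodes the secreted dimeric lectin galectin 1, stood at 16296 and 24099 in KO, against 10260 and 17747 in WT. Its log2 ratios of 0.67 and 0.44 (mean 0.55 ± 0.16, SD, n = 2; adjusted p = 0.859) were small and of one sign, and the groups overlapped. Lgals3, whose product galectin 3 is widely used as a macrophage antigen, stood at 1593 and 1819 in KO, against 395 and 936 in WT. The groups did not overlap, but WT was not well above background on array 1. The log2 ratios were 2.01 and 0.96, with a mean of 1.49 ± 0.75 (SD, n = 2) that did not pass (limma adjusted p = 0.118).

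By the scanner software's own log ratio, which has its own background subtraction, the genes with a dim WT channel had larger ratios. Anxa2 was at 4.60 ± 0.52 and 3.89 ± 0.42 on the log2 scale, where the errors are the software's own for the spot. Lgals3 was at 3.64 ± 0.53 and 1.61 ± 0.32, and Anxa1 at 2.52 ± 0.70 and 2.87 ± 0.85. S100a4 was at 1.26 ± 0.24 and 1.76 ± 0.26 and Lgals1 at 0.59 ± 0.21 and 0.44 ± 0.21. S100a11 was at 2.22 ± 0.30 and 0.97 ± 0.23, a mean of 1.60 against 1.06 as reported above. With these ratios 8 of the 10 genes were above 0 on both arrays (29.2% of all genes), with Anxa5 at -0.01 on array 1 and Anxa6 of opposite signs. No gene of the array passed (603 at an unadjusted p under 0.05, limma).

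**Figure D3:**
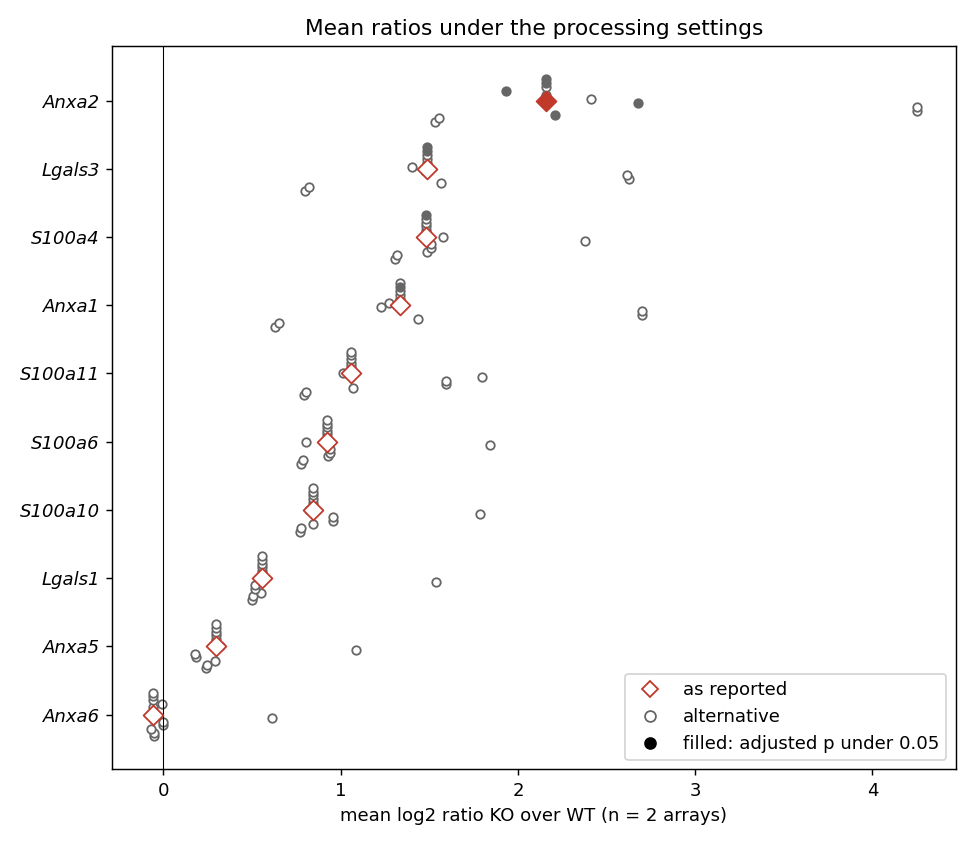
Mean log2 ratio of KO over WT for each gene as reported (diamonds) and under up to 13 alternative settings (circles, spread vertically for legibility); filled symbols have an adjusted p under 0.05. Anxa2 ranges from 1.53 to 4.25, S100a4 from 1.31 to 2.38 and Anxa6 from -0.07 to 0.61.

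The signals also differed between samples of the same genotype. In WT, S100a6 was 4.60-fold, S100a4 2.75-fold and Lgals1 1.73-fold brighter on array 2 than on array 1. In KO the corresponding values were 2.05-fold, 3.64-fold and 1.48-fold. Anxa2 was 2.81-fold brighter on array 2 in KO. Over the 7 genes well above background in all 4 samples, the median difference of array 2 from array 1 was 0.03 in KO and 0.48 in WT on the log2 scale, against -0.18 in KO and -0.18 in WT over all genes that met this condition. In the same WT samples the neutrophil gene S100a9 was 6.35-fold brighter on array 2. The lysozyme gene Lyz2 was at least 8.71-fold and Cd44 at least 5.20-fold brighter there, bounds set by array 1, where neither was well above background. These 3 genes were chosen after their values were seen, and their part in the results was not tested.

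Most relatives outside the 10 genes were not tested, and none of those tested passed. Of 8 other annexins only Anxa11 was tested, at 1.99 and 0.41 (mean 1.20), without passing. Of 12 other S100 genes 5 were tested and none passed. S100b (-0.82 and -0.36) and S100a14 (-0.74 and -0.15) were below 0 on both arrays. Opposite signs on the arrays were found for S100a8 (0.91 and -0.15), S100a9 (2.86 and -0.71, mean 1.07) and S100a13 (-0.26 and 0.84). The median of these 5 S100 genes was 0.29, while the means of Anxa11 and S100a9 lay above the 0.99 median of the 10 genes. Among 8 other galectins and galectin-binding genes 5 were tested and none passed, with Lgals8 at 1.04 and 0.26, Lgals9 at 0.44 and 0.34, Lgals4 at 0.27 and 0.24, and Lgals7 at -0.82 and -0.09. Their median was 0.26, against 0.99 for the 10 genes and 0.04 for all genes.

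Of 17 binding partners and receptors, 11 were tested and 1 rose, Cd7, a galectin 1 receptor of T and NK cells (1.87 and 2.66, adjusted p = 0.00147). Myh9, the myosin bound by S100a4, was at 1.91 and 0.64, and Cacybp, which binds S100a6, at 2.41 and 0.52. Spn (CD43), a glycoprotein ligand of galectin 1, was at 1.09 and 0.29 by its brightest probe. Another Spn probe, well above background in all 4 samples, gave -0.95 and 0.05, so the direction of Spn is unsettled. Ahnak, which binds the complex of Anxa2 and S100a10, was at -1.98 and -0.05 by its brightest probe. Its other probes that were well above background in KO on both arrays gave 0.82 to 1.11 as means, so its direction is unsettled. Of 26 memory-type genes 20 were tested and 1 rose, Id2 (2.29 and 1.20, adjusted p = 0.0346). Ccl5 (1.02 and 1.76), Cd44 (1.58 and 0.36), Gzmb (1.77 and 0.15) and Ly6c1 (-0.97 and -1.15) did not pass. A second Cd44 probe, well above background in KO on both arrays but dimmer and not in the fit, gave 2.39 and 1.22. The second Ccl5 probe gave smaller ratios (0.49 and 0.86). The median of that list was 0.40. None of 10 naive-state genes passed, with Ccr7 at -1.72 and -0.96, Il7r at 2.17 and 0.21 and Klf2 at -0.36 and -0.04. By their brightest probes the other naive-state genes had opposite signs on the arrays. Among them were Lef1 (3.22 and -0.62), Tcf7 (2.73 and -0.59) and Foxp1 (2.20 and -0.08). Dimmer probes, well above background in all 4 samples, gave smaller ratios for Lef1 (0.81 and -0.24) and Tcf7 (0.55 and -0.23). Those of Foxp1 (1.07 and 0.17) and Satb1 (0.62 and 0.55) were above 0 on both arrays. Such a probe of Klf2 gave -3.71 and 0.38, so the direction of Klf2 is unsettled. With the brightest probe of each gene, the median of the naive list was 0.55 (1.23 on array 1 and -0.17 on array 2), above that of the memory-type list.

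Markers of cell types other than T cells were also read. Whether their signal came from other cells or from the sorted T cells themselves was not tested. Of 7 macrophage markers, none was well above background in WT on either array, while 6 were in KO on both arrays; their summed intensity was 14205 and 11789 in KO, against 3473 and 3076 in WT. The 6 that were tested passed the filter through KO alone, which favours a higher KO signal, so nothing is read from how many of them passed. Of these, Adgre1 was at least 3.86-fold, C1qc at least 4.57-fold and Csf1r at least 2.02-fold higher in KO, and these 3 passed. Cd68 was not tested. The 5 NK markers summed to 18684 and 81643 in KO, against 5136 and 4730 in WT, and Fcer1g, Klrb1c and Tyrobp passed. Fcer1g and Klrb1c also entered the test through KO alone, while Tyrobp was well above background in all 4 samples (1.52 and 3.94). Ncr1, largely restricted to NK cells and related lymphocytes, and Klra8, a receptor gene with near-identical relatives, had means of 0.33 and 0.17 without passing, and the ratios of Ncr1 were of opposite signs (-0.20 and 0.86). Both genes also entered the test through KO alone. The 5 monocyte and neutrophil markers on the array summed to 24278 and 15588 in KO, against 3984 and 22458 in WT, and Lyz2 alone passed, with opposite signs (4.03 and -0.38). Lyz2 too entered the test through KO alone. Of 2 dendritic cell markers tested Itgax passed (2.29 and 2.26), having also entered the test through KO alone. None of the 1 CD4, 2 B cell and 1 erythroid markers tested passed. The T cell markers summed to 173262 and 150442 in KO, against 134689 and 130378 in WT, and none passed. Their ratios were uneven, with Cd3g at 2.39 and -0.09 and Cd3e at 0.87 and 0.35 by its brightest probe. Cd3d was at 0.09 and 0.47, Lck at 0.19 and 0.01 and Zap70 at 0.12 and 0.25. The part of any cells other than T cells in the ratios of Anxa2, Lgals3 and the others was not tested.

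The pair of log2 ratios nearest to that of Anxa2, by Euclidean distance over the 2 arrays among 77 tested genes of these lists and markers, belonged to Cd7 (distance 0.51). Tyrobp (1.04), Itgax (1.08), Ccl5 (1.21) and Vcam1 (1.35) followed. In WT, Anxa2 and Itgax were not well above background on array 1 and Vcam1 on neither array, so this order rests in part on dim signals.

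**Figure D4:**
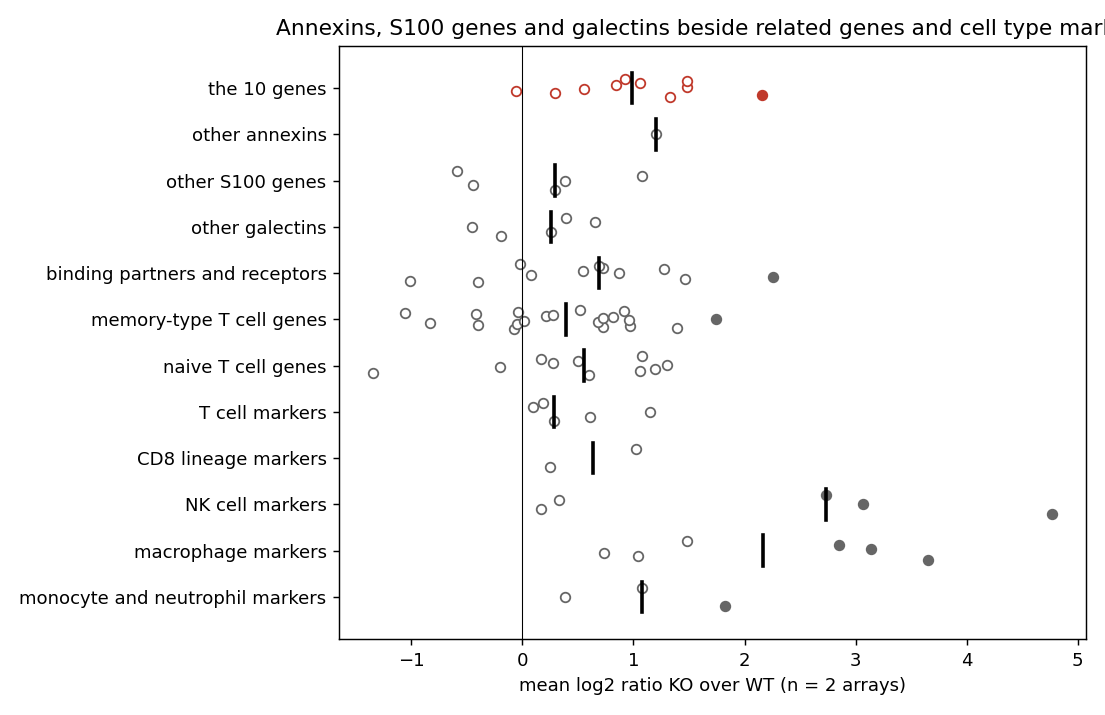
Mean log2 ratio of KO over WT for each tested gene of the 10 annexin, S100 and galectin genes (red), of related gene lists and of cell type markers (grey); filled symbols have an adjusted p under 0.05 and black bars are medians. The 10 genes have a median of 0.99, the memory-type list 0.40 and the naive list 0.55. The macrophage markers, the NK markers other than Tyrobp, and S100a8 and Lyz2 were among those that entered the test through KO signal alone.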

How the data were processed

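Naive CD8+ T cells of KO and WT mice were compared on 2 two-colour Agilent arrays of 1 slide, scanned together. Per the submitters' processing notes, scans were read with Agilent Feature Extraction 9.5.3.1. The deposited scanner files give mean signals and local backgrounds as linear intensity, not normalised, per the file headers. Log10 ratios of red (KO) over green (WT), with an error for each, stand in the same deposited files; the software had subtracted background and normalised the dyes for them. The deposited value table holds the same log10 ratios to within 0.005, with a median of 0 in each column.

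The intensities were corrected with normexp (offset 50) on mean signals and median local backgrounds and normalised within arrays by loess in limma 3.58.1 (R 4.3.3), control and flagged spots having weight 0. Local backgrounds (medians 35 to 51.5) were far below the negative controls (985 to 1865), so log2 ratios of dim genes are pulled towards 0. Probes were kept if 1 channel was well above background on each array, the same one, and the brightest stood for its gene. The log2 ratios made from the deposited intensities were fitted over all genes (lmFit, eBayes; two-sided p-values, Benjamini-Hochberg over genes, threshold 0.05). The prior degrees of freedom were infinite, so every gene had a standard error of 0.50 and the smallest mean ratio to pass was 1.68 in size. That error pools the spread between these 2 arrays over all genes. A gene's p-value therefore follows its mean ratio alone and does not measure its own spread between the arrays. Intensities by sample are after further Aquantile normalisation between arrays. Probes were named through RefSeq (GRCm38.p6) by accession (24375), symbol (6301) or older symbol (2426), and 8072 kept the name in the files.

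The 10 genes, the lists and the alternatives were chosen with earlier results of these data known. Named genes are the 10 members, Bcl11b, passing genes of each list and up to 4 others per list with the largest mean ratio of one sign on both arrays, and the 5 genes nearest to the member with the highest ratio. A macrophage marker of the lists is not reported here. Alternatives changed the background correction, normalisation, filter, probe rule and variance model, or left out an array. Figures were drawn with matplotlib 3.10.9.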

Additional observations from a re-analysis of the deposited data

How the results depend on the processing

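The call of Anxa2 was lost under 7 alternatives: no background subtraction (mean log2 ratio 1.53, adjusted p = 0.0629), plain subtraction of the local background (1.56, 0.0701), the scanner software's log ratio (4.25, 0.409), the deposited value table (4.25, 0.421), log ratios scaled between arrays (2.41, 0.479), no filter (2.16, 0.457) and every probe tested on its own (2.16, 0.0516). It could not be tested when both channels had to be well above background on both arrays, which also left out Anxa1 and Lgals3. With an intensity trend in eBayes Anxa1 (1.33, adjusted p = 2.04e-06) and Lgals3 (1.49, 0.00391) also passed, and with robust eBayes S100a4 (1.48, 0.0366) and Lgals3 (1.49, 0.0358) did. Anxa6 turned to 0.61 with median centring. Of all genes, 138 passed as reported (115 higher and 23 lower in KO). There were 32 without background subtraction, 31 with plain subtraction, 63 with median centring (62 higher and 1 lower), 40 with the strict filter (26 and 14), 29 of 11844 probes tested singly, 302 with the intensity trend and 219 with robust eBayes. There were 0 with the scanner's log ratio, the deposited table, scaling between arrays or no filter (603, 594, 903 and 2478 at an unadjusted p under 0.05, limma). The causes were not tested. Without either array no mean of the 10 genes changed sign, though each is then a single ratio without a test: Anxa2 was at 1.41 to 2.90, S100a6 at 0.34 to 1.51 and Lgals3 at 0.96 to 2.01. No paired analysis was possible because there is 1 group of ratios, each already taken within an array. The number of arrays and the dim WT channel of Anxa1, Anxa2 and Lgals3 limit the precision.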
